A study of Mus musculus with 2 samples.

Results

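Immature thymocyte-like T cells were taken here as cells that held RNA of T cell genes together with RNA of genes used while a T cell receptor is being assembled. A cell of either library was a member if it had at least 300 genes, at least 500 UMIs (unique molecular identifiers, each standing for 1 counted RNA molecule) and at most 20% mitochondrial UMIs. It also had to hold at least 2 of the 6 genes Cd3d, Cd3e, Cd3g, Trbc1, Trbc2 and Tcf7 and at least 1 UMI of Dntt, Arpp21 or Ptcra. Cells with 30 or more UMIs of C1qa, C1qb and C1qc per 10000, or with 100 or more of Col1a1, Col1a2 and Col3a1 per 10000, were left out. The rule found 286 of 22084 cells, 48 of 10125 in the GFPhi library and 238 of 11959 in the GFPlo library. The measured values of these genes chose the members, so their levels in them are a description and support nothing else.

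All cells came from the heart of mice with the genotype p16-2A-CreER;R26-mTmG, in which tamoxifen lets a CreER recombinase driven with p16 switch a membrane reporter to GFP. Both groups had myocardial infarction (MI), tamoxifen by oral gavage on day 5 and harvest of the infarct zone on day 7, and cardiomyocytes were removed before sorting. The sorted fractions GFPhi and GFPlo, which another label field calls GFP-positive and GFP-negative, were 1 library each, and the sources used here do not give how many mice each held. With 1 library per group no difference between them has a replicate check, and no test was made. Every 95% interval below is exact and covers counting error only.

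T cells normally mature in the thymus from progenitors that carry neither CD4 nor CD8. Under Notch signalling these double-negative cells rearrange the beta, gamma and delta receptor genes, and a beta chain that pairs with pre-T-alpha, the product of Ptcra, starts a burst of division. The cells then gain CD8 and CD4, rearrange the alpha chain as double-positive cells and are selected into CD4 or CD8 T cells. Dntt encodes terminal deoxynucleotidyl transferase, which adds bases at the joints of receptor genes, and the Rag proteins cut the DNA. Arpp21 encodes a phosphoprotein that is abundant in brain and in immature thymocytes.

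The promoters of 3 genes of receptor assembly are shown because RNA of these genes marked the cells. Each runs from 150 bases before the start of the gene to 10 after it, 5′ to 3′ on the gene's strand, from RefSeq (GRCm38.p6). Capitals mark the E-box CAGCTG, a sequence that E proteins such as those of Tcf3 and Tcf12 can bind and that reads the same on both strands.
Dntt, chr19:41029125-41029284, plus strand: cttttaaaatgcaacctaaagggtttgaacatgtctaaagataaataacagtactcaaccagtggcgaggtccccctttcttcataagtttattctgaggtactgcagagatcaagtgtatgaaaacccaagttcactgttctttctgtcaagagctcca
Ptcra, chr17:46763703-46763862, minus strand: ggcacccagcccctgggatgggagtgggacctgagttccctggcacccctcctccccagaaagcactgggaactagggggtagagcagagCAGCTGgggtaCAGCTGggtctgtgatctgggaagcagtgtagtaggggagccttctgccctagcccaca
Rag2, chr2:101624562-101624721, plus strand: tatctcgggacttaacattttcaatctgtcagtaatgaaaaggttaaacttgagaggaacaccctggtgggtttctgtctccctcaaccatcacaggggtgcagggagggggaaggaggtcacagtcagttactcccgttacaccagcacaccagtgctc
CAGCTG stood 60 and 49 bases before the Ptcra start, and neither it nor the E-box CACCTG, searched on both strands (CAGGTG), stood in the Dntt or Rag2 windows. Among 32851 promoter windows of this length, 8.95% held CAGCTG, 0.621% held 2 or more and 11.3% held CACCTG or CAGGTG. These are matches of letters and were not tied to a measurement of binding. In GENCODE vM21 (mm10) Dntt is a protein-coding gene on chromosome 19 (41029275 to 41059525, plus strand), Ptcra lies on chromosome 17 (46755663 to 46763712, minus strand) and Arpp21 on chromosome 9 (112065091 to 112235938, minus strand).

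The GFPhi library held 91343549 UMIs in 10430 barcodes and the GFPlo library 104855204 in 12344. Kept cells had a median of 6899 and 7712 UMIs. The libraries shared 94 cell barcodes, and 0 of the GFPhi members and 2 of the GFPlo members carried one.

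Depth differed between the members of the libraries. GFPhi members had 918 to 54237 UMIs, with a median of 1558.5 UMIs and 893.5 genes. GFPlo members had 547 to 28321 UMIs, with a median of 5387.5 UMIs and 2066.5 genes. Their median mitochondrial shares were 2.04% and 1.97%. In GFPhi, 33 of 48 members had at most 2000 UMIs, while 5 members above 10000 UMIs gave 61.0% of all member UMIs. In GFPlo, 59 had at most 2000 UMIs, 122 had more than that and up to 10000, and 57 had more than 10000, and those 57 gave 53.3% of the UMIs. Sums over GFPhi members therefore rest largely on 5 cells, and results are also given for members up to 10000 UMIs. No doublet caller was run, and the deepest cells were examined for RNA of other types instead. The deepest GFPhi member, with 54237 UMIs and 24.4% of all GFPhi member UMIs, also held 346 UMIs of fibroblast and 199 of mesothelial markers. In GFPlo the deepest member, with 28321 UMIs, held 446 UMIs of fibroblast markers.

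**Figure D1:**
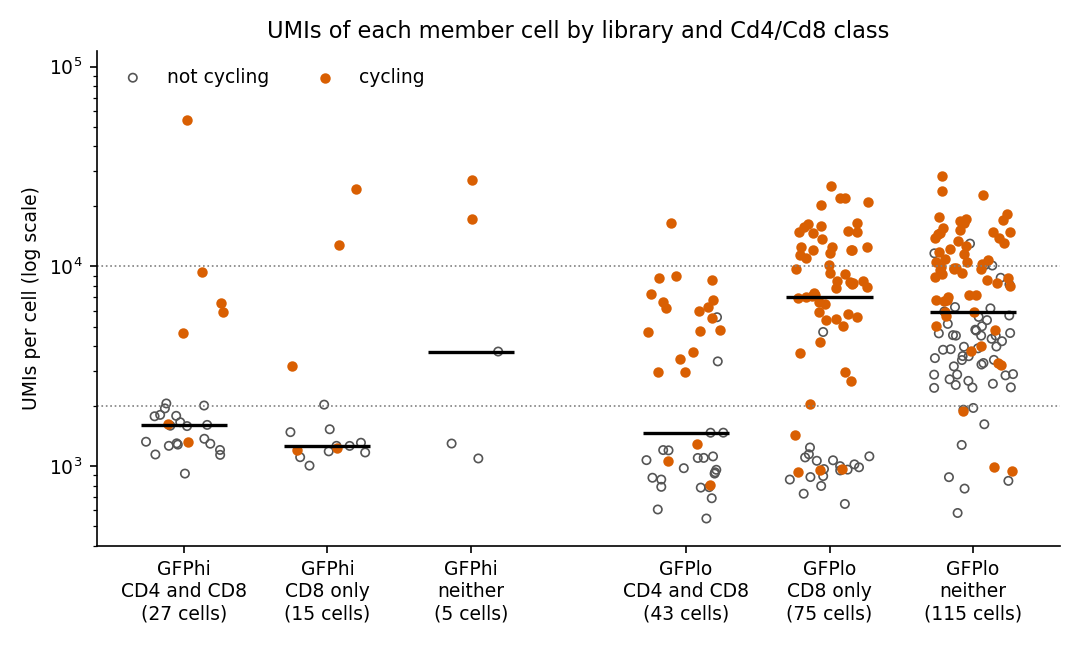
UMIs per member (logarithmic axis) for each library and co-receptor class, with cycling members in orange, the others as open circles, a black bar at the median and dotted lines at 2000 and 10000 UMIs; the 1 and 5 members with CD4 only are not drawn. GFPhi members lie mostly below 2000 UMIs, while GFPlo members with CD8 only or neither co-receptor have medians of 7037 and 5894.

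Members made up 0.474% of GFPhi cells (95% interval 0.35 to 0.628) and 1.99% of GFPlo cells (1.75 to 2.26). The GFPlo share was 4.20-fold higher (3.07 to 5.85). The libraries differed in what else they held, since macrophage-gene cells made up 7642 of the GFPhi cells and 55 of the GFPlo cells. Without macrophage-gene cells in the denominator the shares were 1.93% (1.43 to 2.55) and 2.00% (1.76 to 2.27), a ratio of GFPhi to GFPlo of 0.967 (0.694 to 1.32). Other T cells, defined by the same T cell genes and limits but with no UMI of Dntt, Arpp21 or Ptcra, numbered 48 and 365. Members were 50.0% (39.6 to 60.4) of T cells in GFPhi and 39.5% (35.5 to 43.5) in GFPlo, a ratio of 1.27 (0.909 to 1.73). The intervals of these shares overlapped, while those of the shares of all cells did not.

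Arpp21 was found in 93.8% of GFPhi members and 96.2% of GFPlo members, with 202 and 1111 UMIs. Dntt was found in 62.5% and 80.3%, with 83 and 766 UMIs. Ptcra, the rarest of the 3, was found in 18.8% and 23.1%, with 12 and 77 UMIs, and no member entered the rule through Ptcra alone. All 3 were found in 6 GFPhi and 52 GFPlo members, Dntt and Arpp21 without Ptcra in 21 and 130, and Arpp21 alone in 16 and 44. Members just inside the threshold, with exactly 1 UMI of the 3 genes, numbered 7 and 22. T cells just outside it, with none, numbered 48 and 365. The limits on macrophage and collagen genes left out a further 4 and 16 cells. Among 7642 macrophage-gene cells of GFPhi (median 6892 UMIs), 0.0785% held Dntt and 0.0654% held Arpp21. Among 7144 collagen-gene cells of GFPlo (median 9340 UMIs) the shares were 0.420% and 0.364%. The rule required RNA of these genes in members, so the shares outside them give only the background level.

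Some genes that the rule did not use were also found mainly in members. Rag2, the partner of Rag1 in cutting receptor genes, was found in 25 cells of both libraries together, and 24 of these were members. Its 4 UMIs in GFPhi and 23 in GFPlo lay in 8.33% and 8.40% of members. Rag1 was listed at 0 in every barcode of both libraries, and whether the authors' counting could have found it is not known, so this 0 is not read as a level. The genes whose cells were most often members, among genes found in at least 20 cells, were Rag2 (24 of 25), 2900079G21Rik (42 of 44), 4930519L02Rik (22 of 24), Arpp21 (274 of 314), C030013G03Rik (18 of 21), Tctex1d1 (27 of 32), Gm15340 (30 of 36), Gm49169 (16 of 20), Myl10 (109 of 137) and Dntt (221 of 280). Arpp21 and Dntt are in that order because the rule used them, and the others are read as company of these genes in the same cells, over 286 members of 2 libraries. Tcf7, a transcription factor of early T cells and the remaining marker of the label, was found in 83.3% of GFPhi and 88.2% of GFPlo members, against 56.3% and 33.2% of other T cells. Depth differed in these sets, with medians of 1558.5 and 5387.5 UMIs in members and 2470.5 and 2846 in other T cells. Tcf7 has a further limit. It is 1 of the 6 T cell genes of the rule, so its level is also a description.

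Co-receptor RNA split the members in different proportions in the libraries. A member was called CD4 and CD8 with at least 1 UMI of Cd4 and of Cd8a or Cd8b1, and otherwise CD8 only, CD4 only or neither. In GFPhi 27 members (56.3%, 41.2 to 70.5) held both, 15 (31.3%, 18.7 to 46.3) CD8 only, 1 CD4 only and 5 (10.4%, 3.47 to 22.7) neither. In GFPlo 43 (18.1%, 13.4 to 23.6) held both, 75 (31.5%, 25.7 to 37.8) CD8 only, 5 CD4 only and 115 (48.3%, 41.8 to 54.9) neither. As sequenced, the class without co-receptor RNA was thus the largest in GFPlo and the class with both the largest in GFPhi.

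The chance of finding a UMI rises with depth, so each cell with at least 1000 UMIs was thinned to 1000. After that, 34.0% of 47 GFPhi members were CD4 and CD8, 44.7% CD8 only and 19.1% neither, so that CD8 only was then the largest class in GFPhi. Of 203 GFPlo members 6.90%, 17.7% and 73.4% fell in these classes. Cells below 1000 UMIs were left out, and in GFPlo this took unequal parts of the classes set before thinning. It kept 30 of 43 GFPlo members with both co-receptors, 62 of 75 with CD8 only and 109 of 115 with neither. The part of this loss in the thinned shares was not tested. The median of GFPlo members without co-receptor RNA was 5894 UMIs, and that of GFPlo members with both was 1470 UMIs. Up to 2000 UMIs the classes were closer, with 20 of 33 GFPhi members and 23 of 59 GFPlo members holding both co-receptors. Depth and class moved together in GFPlo, and how far depth set the classes beyond the thinning was not tested.

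**Figure D2:**
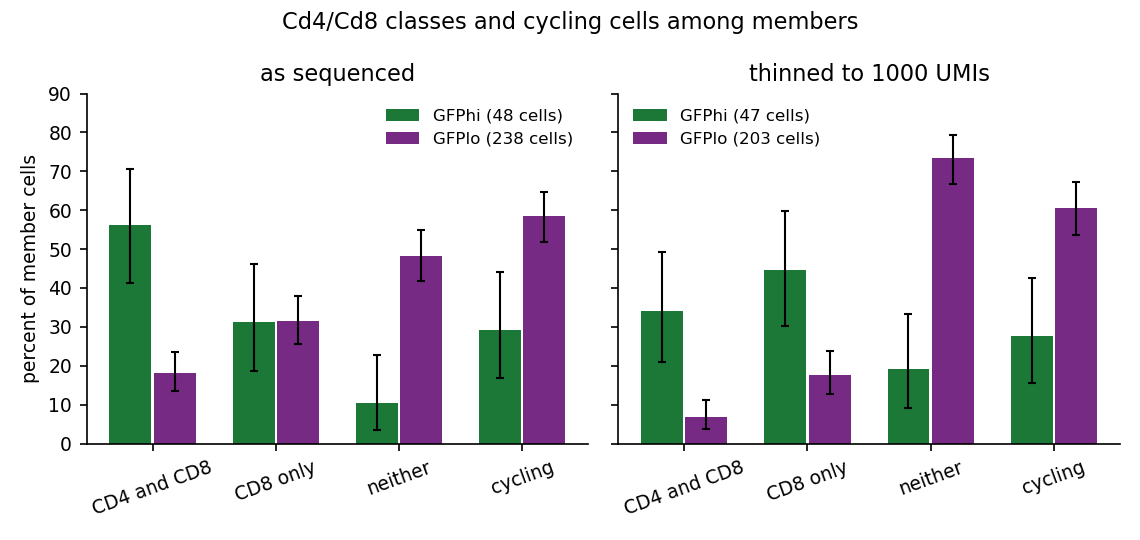
Percent of members in each co-receptor class and percent cycling, per library, as sequenced and after thinning to 1000 UMIs, with exact 95% intervals for counting error. Thinning lowers the share with both co-receptors in each library, and GFPhi stays above GFPlo, at 34.0% against 6.90%. Cells below 1000 UMIs are left out of the thinned shares, which kept 30 of 43 GFPlo members with both and 109 of 115 with neither.

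GFPlo members without CD4 or CD8 RNA held RNA of the double-negative stage. They were set against GFPlo members with CD8 only, both limited to 10000 UMIs (83 and 51 cells, medians 4501 and 3683). Levels are CPM, a gene's UMIs per 1000000 UMIs of the summed cells, and genes were compared with at least 50 CPM in a group and 20 UMIs in all. Of 3634 genes 398 were at least 2-fold higher (11.0%) and 364 at least 2-fold lower (10.0%). Of the 18 genes of the early thymic and double-negative list, 7 passed this filter. All 7 were at least 2-fold higher, with a median log2 ratio of 2.92 against -0.04 for all genes. A gene could pass through the class where it was high alone, so this count is only a description. The cells had been split by Cd4, Cd8a and Cd8b1, so values of those 3 genes are no result here.

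Il2ra, the interleukin-2 receptor alpha chain (CD25) of the later double-negative stages, had 348 CPM (139 UMIs) against 9.56 CPM (2 UMIs), a 36.4-fold difference (9.88 to 303). Over all depths it was found in 69 of the 115 GFPlo members without co-receptors, 2 of 75 with CD8 only and 1 of 43 with both. Hes1, a target of Notch, was 7.85-fold higher (3.86 to 18.6) and Notch1, the receptor itself, 2.77-fold (1.71 to 4.72). Cpa3, a protease gene of early progenitors and mast cells, had 61 UMIs against 0, at least 10.6-fold higher, and Il7r, the interleukin-7 receptor, had 42 against 0, at least 7.32-fold higher. Bounds of this kind take 3 counts over the group for the 0.
In the effector list 2 of 5 genes were at least 2-fold higher, Id2 and Nkg7, a granule membrane gene of cytotoxic cells with 64 UMIs against 0, at least 11.2-fold higher. Beyond the lists, Plac8 and Myl10 were named after their values were seen. Plac8 had 853 UMIs against 5, an 89.2-fold difference (38.1 to 276), and Myl10 was 55.1-fold higher (18.7 to 269). Plac8 RNA lay in 96 of the 115 cells, so the level was not that of a few cells.

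The gamma receptor genes divided the same classes, and the delta constant region did not. Tcrg-C1, Tcrg-C2 and Tcrg-C4, the constant regions of the gamma chain, had 258, 312 and 138 UMIs in GFPlo members without co-receptors up to 10000 UMIs and 0 in those with CD8 only. These differences are at least 45.0-fold, 54.4-fold and 24.1-fold. Tcrg-C1 and Tcrg-C2 are near-identical copies, so how reads divide between them is uncertain. Over all depths, Tcrg-C2 RNA was found in 83 of the 115 cells. Trdc, the delta constant region, had 335 CPM against 430 CPM, a ratio of 0.779 (0.592 to 1.03). Trac, the alpha constant region, had 5 UMIs against 53 and was 20.3-fold lower (8.16 to 65.0).

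Genes of the double-positive list and of division were lower in the class without co-receptors. Of 11 double-positive genes compared, 7 were at least 2-fold lower (median log2 ratio -1.57), 2 of which, Cd8a and Cd8b1, defined the split. Satb1, a chromatin organizer of thymocytes, was 3.04-fold lower (2.43 to 3.82) and Endou 2.45-fold lower (1.73 to 3.50). All 20 genes of the G2/M list were at least 2-fold lower (median log2 ratio -2.27), and Top2a, a topoisomerase of dividing cells, was 3.12-fold lower (2.53 to 3.87). In the S phase list 3 of 16 genes were at least 2-fold lower and 0 higher. Of 6 fibroblast markers compared between these classes, 1 (Col1a2) was at least 2-fold higher.

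GFPlo members with both co-receptors were closer to those with CD8 only. Between 42 and 51 cells up to 10000 UMIs, 119 of 2733 genes were at least 2-fold higher in cells with both (4.35%) and 111 lower (4.06%). Ccr9, a chemokine receptor that draws thymocytes to Ccl25, had 147 CPM (19 UMIs) against 66.9 CPM (14 UMIs), 2.19-fold higher (1.04 to 4.72). Id3, an inhibitor of E proteins, was 2.11-fold higher (1.34 to 3.35) and Klf2, a factor of exit from the thymus, 2.79-fold (1.26 to 6.48). Satb1 and Themis, both of the double-positive list, had ratios of 1.13 (0.903 to 1.40) and 1.06 (0.834 to 1.34). The cells with both were shallower, with a median of 1380 UMIs against 3683, and 3 of 6 fibroblast markers were at least 2-fold higher in them. These were Col1a2, Dcn and Lum, and a cell of 5566 UMIs with 88.0 collagen UMIs per 10000 was among the cells with both. The part of depth and of fibroblast RNA in these differences was not tested.

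**Figure D3:**
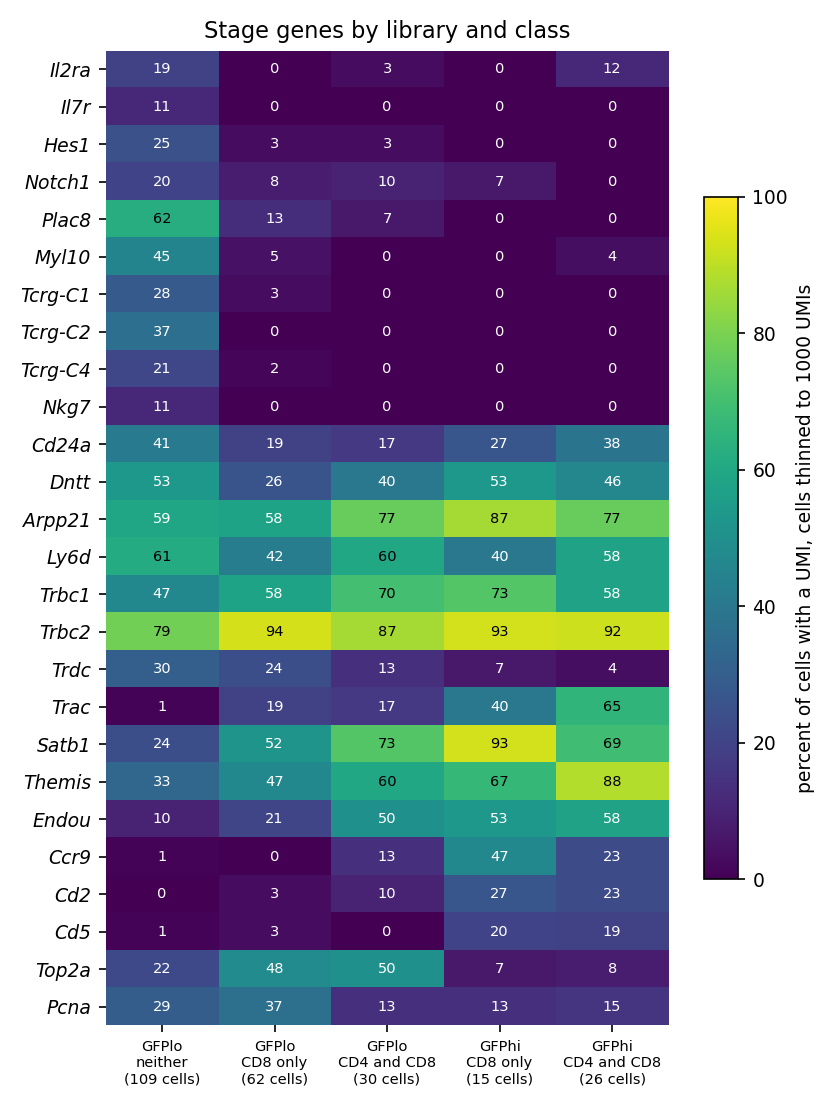
Percent of members with at least 1 UMI of 26 stage genes after thinning to 1000 UMIs, for GFPlo members with neither co-receptor, CD8 only and both, and GFPhi members with CD8 only and both. Plac8 stands at 62.4% in the GFPlo class with neither and at 6.67% in the GFPlo class with both, while Trac runs the other way, from 0.917% to 16.7%, and reaches 65.4% in GFPhi cells with both.

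Receptor chains divided the libraries as well. Trbc1 and Trbc2, the beta constant regions, are near-identical copies and were among the genes of the rule. After thinning, RNA of both was found in 55.3% of GFPhi and 47.8% of GFPlo members, against 34.8% and 17.8% of other T cells. Trac was found in 36 of 48 GFPhi members (75.0%) and in 66 of 238 GFPlo members (27.7%), and after thinning in 51.1% and 8.87%. Among other T cells Trac was found in 81.3% and 67.9%, and after thinning in 54.3% and 41.4%. Trdc, which lies inside the alpha locus and is lost when that locus is rearranged, was found in 18.8% of GFPhi and 47.9% of GFPlo members, and after thinning in 6.38% and 25.6%. Among members with both co-receptors up to 10000 UMIs, Trdc was 2.49-fold higher in GFPhi by CPM (1.45 to 4.29, 32 against 28 UMIs), while over all depths it was found in 4 of 27 GFPhi and 9 of 43 GFPlo members of that class. Variable segments were sparse: alpha segments had 3 and 10 UMIs, beta segments 20 and 67, delta segments 2 and 2 and gamma segments 11 and 135.

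A member was called cycling with at least 5 UMIs of 20 G2/M genes per 10000. By this 14 of 48 GFPhi members (29.2%, 17.0 to 44.1) and 139 of 238 GFPlo members (58.4%, 51.9 to 64.7) were cycling. Thinned to 1000 UMIs the shares were 27.7% (15.6 to 42.6) and 60.6% (53.5 to 67.4). Cycling members were deeper, with medians of 6254.5 and 8519 UMIs against 1317.5 and 2476 in the others, so without members above 10000 UMIs the shares were 20.9% and 47.5%. In GFPlo 56 of 75 CD8 only members, 59 of 115 with neither and 21 of 43 with both were cycling. In GFPhi the counts were 5 of 15, 2 of 5 and 7 of 27. In a cell of up to 2000 UMIs a lone UMI of these genes was enough for the call, while deeper cells needed more. Shares after thinning also rest on few UMIs per cell, and no stage of the cycle was assigned to single cells.

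Within GFPlo, members were set against other T cells, a contrast inside 1 library in which the sort plays no part. Of 3656 genes 572 were at least 2-fold higher in members (15.6%) and 651 at least 2-fold lower (17.8%), with a median log2 ratio of 0.17. Scaled by the median of ratios instead, the counts were 413 higher and 752 lower. The rule chose members and other T cells by genes of the same cells, so these values describe what comes with the rule's genes.

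Thymocyte genes stood highest. Ly6d, a surface protein of early lymphoid cells, had 1730 UMIs in GFPlo members against 19 in other T cells, a 96.9-fold difference (61.9 to 161). Endou had 293 UMIs against 4, or 184 CPM against 2.35 CPM, and Myl10 448 against 4, a 119-fold difference (46.2 to 439). Cd24a, a surface protein of immature lymphocytes, was 27.9-fold higher (17.0 to 49.3) and Myb, a factor of progenitors, 21.8-fold (12.3 to 42.8). Further genes named by size were Aqp11 (58.9-fold), Ly6k (20.9-fold), Hist1h1a (13.1-fold), Cdca7 (12.3-fold) and Xrcc6 (11.3-fold), the last a part of the end-joining machinery of receptor assembly. Of the double-positive list 7 of 9 genes were at least 2-fold higher, and of the S phase and G2/M lists 13 of 14 and 19 of 20. Of 20 transcription factors of the T lineage 10 were at least 2-fold higher, among them Tcf12 (3.95-fold), Bcl11b (3.13-fold) and Lef1 (2.47-fold), and 5 at least 2-fold lower. Of 5 glucocorticoid response genes compared, 1 was at least 2-fold higher, Fkbp5 at 5.01-fold (3.95 to 6.41). The list had 3 genes at least 2-fold lower (Zfp36, Dusp1 and Klf9).

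Ighg2b, an immunoglobulin heavy chain gene, had the lowest ratio, with 1 UMI against 2366. Many genes of effector and mature T cells were also lower. In the effector list 15 of 16 genes compared were at least 2-fold lower in GFPlo members, with a median log2 ratio of -4.88. Ccl5, a chemokine of effector T cells, had 9 UMIs in members and 2396 in other T cells, 250-fold lower (132 to 548). Xcl1 had 0 UMIs against 602, at least 189-fold lower, and Klrk1, the receptor NKG2D, 0 against 237, at least 74.2-fold lower. Further genes named by size were Saa3 (17 against 2203 UMIs), an acute-phase gene, Hopx (1 against 267), Il2rb (1 against 242), Ly6c2 (6 against 528), Klrd1 (2 against 275) and Ccr2 (1 against 206). Genes of maturation followed, with 10 of 16 at least 2-fold lower. Klf2 was 4.11-fold lower (3.39 to 5.03), and S1pr1, the receptor that lets T cells leave the thymus, had 2 UMIs against 67. H2-K1, a class I histocompatibility gene, was 7.72-fold lower (6.92 to 8.62) and its partner B2m 3.22-fold lower (3.06 to 3.40). All 6 interferon response genes compared were at least 2-fold lower. Other types' markers moved as well: 4 of 6 fibroblast and 7 of 7 mesothelial markers were at least 2-fold lower in members, and their part in these ratios was not tested.

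In GFPhi the same contrast was narrower for several genes, and the difference between libraries was not tested. Ly6d was 4.12-fold higher in GFPhi members than in other T cells of that library, whose 51 Ly6d UMIs lay in 1 cell. Endou was 15.7-fold higher. By summed UMIs Trac was 1.66-fold lower (1.27 to 2.18) in GFPhi and 6.72-fold lower (5.53 to 8.23) in GFPlo members. The GFPhi sum rests largely on a few deep cells, and GFPhi members up to 2000 UMIs had 1375 CPM of Trac. After thinning, Trac was found in 51.1% of GFPhi members and 54.3% of other GFPhi T cells. In GFPlo these shares were 8.87% and 41.4%. Klf2 was 3.65-fold higher (2.36 to 5.79) in GFPhi members and lower in GFPlo members.

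**Figure D4:**
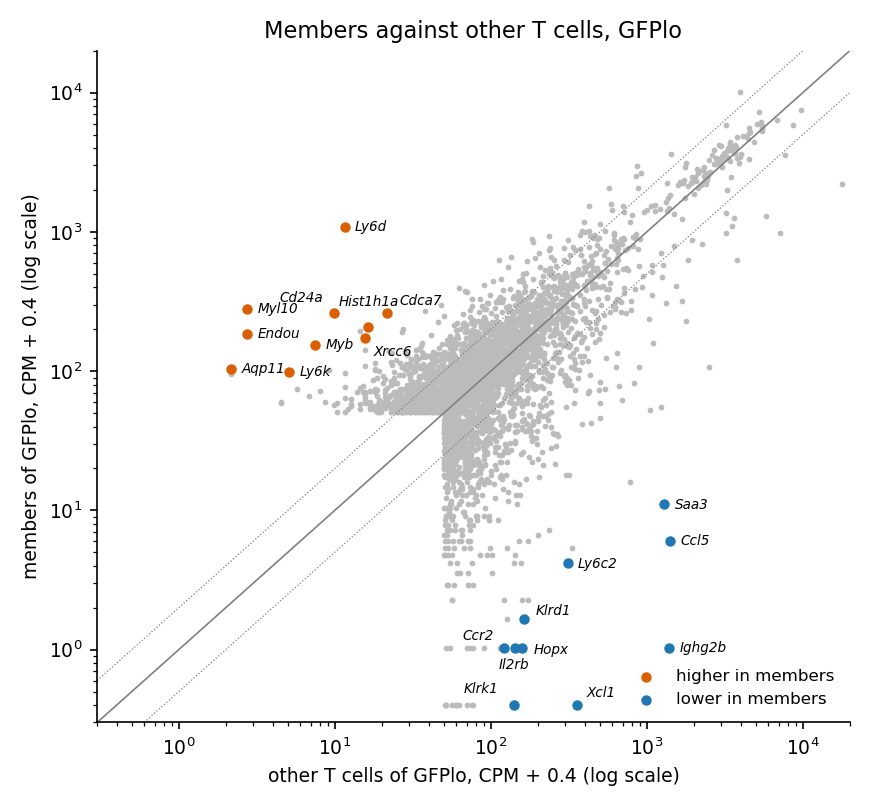
CPM of each gene in GFPlo members against other GFPlo T cells (both axes logarithmic, 0.4 CPM added so that genes at 0 can be drawn), with genes named in the text coloured and dotted lines at 2-fold. Ly6d, Endou and Myl10 lie far on the members' side, and Ccl5, Xcl1 and Klrk1 on the side of other T cells.

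Between the libraries, 281 of 3400 genes were at least 2-fold higher in GFPhi members (8.26%) and 240 at least 2-fold lower (7.06%), with a median log2 ratio of -0.05. Limited to members up to 10000 UMIs (43 and 181 cells), 624 of 3811 were higher (16.4%) and 427 lower (11.2%), with a median of 0.20. Of the double-positive list 6 of 12 genes were at least 2-fold higher over all members and 8 of 12 up to 10000 UMIs, none lower in either. Since the libraries held the classes in different proportions, genes were compared again within the class with both co-receptors.

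Trac had 85 UMIs in GFPhi members and 117 in GFPlo members, 382 CPM (305 to 472) against 73.3 CPM (60.6 to 87.8), a ratio of 5.21 (3.89 to 6.95). Up to 10000 UMIs the ratio was 7.66 (5.62 to 10.4), within the class with both co-receptors 4.90 (3.10 to 7.95), and in members up to 2000 UMIs 1.80 (1.21 to 2.70). The direction was the same in all these sets, and the size fell where shallow cells were compared with shallow cells. Ccr9 had 55 and 49 UMIs, 247 CPM against 30.7 CPM, 8.05-fold higher over all members, 3.33-fold (1.80 to 6.28) with both co-receptors and 2.67-fold (1.42 to 5.21) up to 2000 UMIs. Among cells with both that were not cycling its ratio was 2.00 (0.820 to 5.36), from 17 and 8 UMIs. Without the deepest GFPlo cell of that set it was 1.61 (0.659 to 4.31), and both intervals held 1. Endou, found in 68.8% and 56.7% of members, was 2.03-fold higher over all, 2.00-fold (1.35 to 2.94) with both co-receptors and 2.36-fold (1.43 to 3.98) up to 2000 UMIs. Cd5, which dampens receptor signals and rises with them, was 5.12-fold higher over all members, from 20 and 28 UMIs. Up to 2000 UMIs it was 2.89-fold higher (1.03 to 9.29), from fewer than the 20 UMIs in all that the gene comparison required.

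The co-receptor genes themselves followed the classes. Cd4 was 4.0-fold, Cd8a 2.24-fold and Cd8b1 3.15-fold higher in GFPhi members over all, and 1.31-fold, 1.39-fold and 1.29-fold higher within the class with both, which Cd4 and Cd8 RNA defined. Satb1 and Themis, 2.84-fold and 2.31-fold higher up to 10000 UMIs, had ratios of 0.864 (0.651 to 1.14) and 0.830 (0.628 to 1.09) up to 2000 UMIs. With both co-receptors up to 10000 UMIs they were 1.59-fold (1.22 to 2.06) and 1.91-fold (1.45 to 2.50) higher. Whether Satb1 and Themis stood higher in GFPhi thus depended on which members were compared, and their intervals up to 2000 UMIs held 1. Dntt had a ratio of 0.777 over all members and 0.782 (0.509 to 1.18) with both co-receptors. Among the cells with both that were not cycling it was 3.10-fold higher in GFPhi (1.29 to 8.55, 23 against 7 UMIs). Those cells had medians of 1479 and 968 UMIs. Dntt is a gene of the rule, so its ratios between members are a description. Rag2 had a ratio of 1.25 from 4 and 23 UMIs.

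Genes of the double-negative stage and of division were mixed. Of the double-negative list, 2 of 4 genes compared were at least 2-fold lower in GFPhi members (Notch1 and Hes1) and 1 higher (Cd34) over all, and 3 of 6 lower and 0 higher up to 10000 UMIs. Of the G2/M list 2 of 20 were at least 2-fold lower over all and 3 of 18 up to 10000 UMIs, beside 7.06% and 11.2% of all genes. Plac8 had 25 and 1409 UMIs over all members, and up to 10000 UMIs 5 against 861, a ratio of 0.0499. Tcrg-C1 had 0 UMIs against 258 up to 10000 UMIs and 10 against 357 over all, in 2 and 81 cells. Notch1 and Hes1 had ratios of 0.369 and 0.414 over all members and 0.361 and 0.323 up to 10000 UMIs. In the S phase list 4 of 14 genes were at least 2-fold lower over all and 11 of 15 up to 10000 UMIs, none higher. Pcna, a clamp of replication, had a ratio of 0.614 over all members and 0.50 with both co-receptors. Top2a had ratios of 0.503 over all and 0.213 (0.111 to 0.377) with both co-receptors up to 10000 UMIs, the lowest of the 15 G2/M genes compared in that class. Of these, 4 were at least 2-fold lower and 0 higher, with a median log2 ratio of -0.56, beside 9.88% of all genes lower. Of the S phase list 6 of 9 were at least 2-fold lower there and 0 higher, with a median of -1.20.

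Within the class with both co-receptors up to 10000 UMIs (26 GFPhi and 42 GFPlo cells, medians 1601.5 and 1380), 133 of 1609 genes were at least 2-fold higher in GFPhi (8.27%) and 159 lower (9.88%). Of the double-positive list only Ccr9 of 12 was at least 2-fold higher, and of the receptor complex list 3 of 13 were (Trac, Cd3d and Lcp2). Lcp2 had 12 UMIs in each library, a ratio of 2.18 (0.896 to 5.30). Cd3d, part of the CD3 complex, had 1177 CPM against 509 CPM, 2.31-fold higher (1.63 to 3.29). Up to 2000 UMIs the Cd3d ratio was 1.43 (0.982 to 2.08). Cd3d is among the 6 T cell genes of the rule, so its level is a description. Id3 was 3.59-fold lower (1.53 to 10.3), with 6 and 47 UMIs. Left with cells that were not cycling (20 and 22), 40 of 399 genes were higher (10.0%) and 21 lower (5.26%), Trac was 2.59-fold higher (1.43 to 4.92), Endou 2.99-fold (1.53 to 6.28) and Id3 5.51-fold lower (2.08 to 18.4). Other types' markers moved within the class: 4 of 4 fibroblast markers were at least 2-fold lower in GFPhi (Dcn with 33.6 CPM against 717 CPM) and 2 of 2 macrophage markers higher (Apoe and Lyz2), and their part was not tested. Among the cells that were not cycling, 1 GFPlo cell of 5566 UMIs, with 88.0 collagen UMIs per 10000, gave 19.6% of the GFPlo UMIs. Without it 32 of 361 genes were higher (8.86%) and 16 lower (4.43%), Trac was 2.22-fold higher (1.21 to 4.3), Endou 2.40-fold (1.23 to 5.04), Dntt 2.49-fold (1.03 to 6.87) and Id3 4.22-fold lower (1.48 to 14.7). Of the 93 GFPlo Dcn UMIs of the class, 84 lay in cells that were not cycling. Without the cell of 5566 UMIs, Dcn fell below the 20 UMIs in all that the comparison required. The GFPlo Dcn level above was thus mostly that of 1 cell. Col1a1 was then the only fibroblast marker still compared, and it stayed at least 2-fold lower. Up to 2000 UMIs, whatever the class (33 and 59 cells), 56 of 837 genes were higher (6.69%) and 44 lower (5.26%), and 3 of 11 double-positive genes (Ccr9, Cd24a and Endou) were among the higher.

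**Figure D5:**
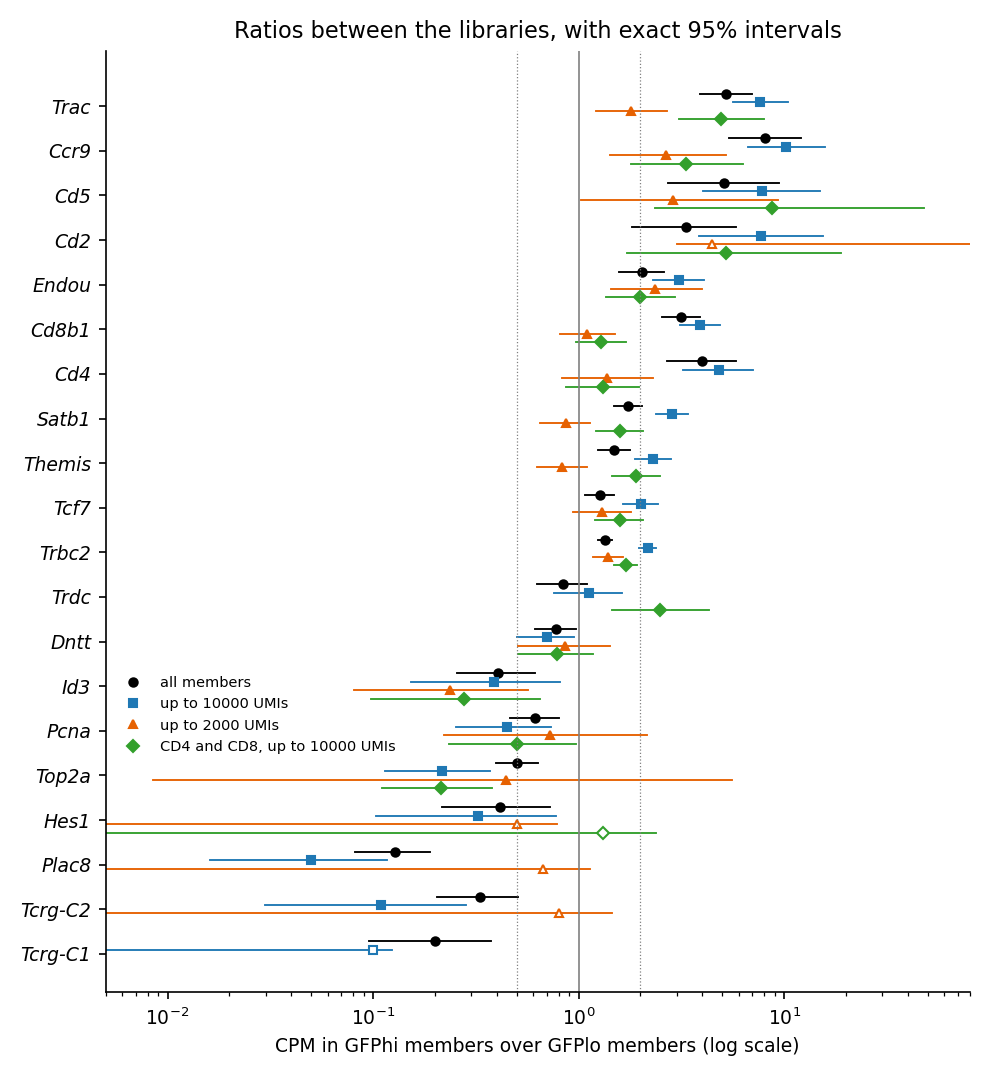
Ratio of GFPhi to GFPlo CPM (logarithmic axis) for 20 genes in all members, members up to 10000 UMIs, members up to 2000 UMIs and members with both co-receptors up to 10000 UMIs, with exact 95% intervals for counting error, open symbols for bounds against 3 counts and lines at 0.5, 1 and 2. Trac, Ccr9 and Endou lie above 1 in each set, while Satb1 and Themis cross 1 in members up to 2000 UMIs.

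The largest ratios between the libraries were those of other cell types' genes. Saa3 had 324 UMIs in GFPhi members, in 3 cells, and 17 in GFPlo members, and Slpi had 516 UMIs in 3 cells against 34. Krt18, a mesothelial keratin, had its 29 GFPhi UMIs in 1 cell. The macrophage genes C1qa (28 against 0 UMIs), C1qb (30 against 0) and Lyz2 (64 against 16) were spread over 20, 19 and 32 of the 48 GFPhi members. On the other side, Postn, a gene of activated fibroblasts, had 2 UMIs in GFPhi members and 209 in GFPlo members. The macrophage list summed to 1465 CPM in GFPhi members and 108 CPM in GFPlo members, and the fibroblast list to 1725 CPM and 2208 CPM. The deepest GFPhi member alone held 346 of the 384 fibroblast-list UMIs of GFPhi members, so that sum is mostly the level of 1 cell. In GFPhi members up to 2000 UMIs the macrophage list had a median of 38.6 UMIs per 10000, with a lowest value of 7.63 and a highest of 91.7, and in GFPlo members up to 2000 UMIs the fibroblast list a median of 27.2, from 0 to 89.2. Each library's members thus carried RNA of that library's main cell type, and its part in the ratios above was not tested. Lists of further types were present in part. The natural killer list, of 9 genes, had 30 UMIs in 8 GFPhi members and 351 in 94 GFPlo members, all or nearly all of them Gzma, with Ncr1 and Klrb1c at 0 in both. The dendritic list, of 10 genes including Ccr9, had 105 UMIs in 30 and 300 UMIs in 152 members, with Siglech, Xcr1 and Clec9a at 0 in both. The thymic epithelial list, of 12 genes, had 8 UMIs in 7 and 80 UMIs in 57 members, mostly of Epcam (3 and 27), Ccl25 (1 and 24) and Ly75 (3 and 23), with Foxn1, Prss16 and Aire at 0 in both. Cardiomyocyte genes had 0 and 3 UMIs.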

How the data were processed

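Each of the 2 libraries was a table of raw UMI counts per gene and barcode, deposited by the authors with 32287 features, including mGFP and CreERT2. The build was mm10, per the submitters' processing notes. Per the labels, a SeekOne droplet 3′ kit was used, while a second label names 10x Genomics. No aligner, counting program or cell-calling step is named (not given in the sources used here). Counts were used as deposited. The members and gene lists were chosen with earlier results of these data known. UMIs were summed over member cells per library, and a gene was counted as different at 2-fold or more. Shares, levels and ratios have exact 95% intervals (Clopper-Pearson, Poisson, conditional binomial), which ignore cell-to-cell spread. Named genes were those of the lists, the 10 per direction with the largest difference by the nearer bound of the interval (passing over mitochondrial, ribosomal, haemoglobin and unnamed predicted genes), and the 10 with the highest share of members among the cells that held them. Cells with fewer than 1000 UMIs were left out of thinned shares. Doublets were addressed by splitting at 2000 and 10000 UMIs. The comparison code was tested on simulated data. Alternatives changed the rule, denominators, depth, filter and scaling. Python 3.11.15, numpy 2.4.6, pandas 2.3.3, scipy 1.17.1 and matplotlib 3.10.9 were used. Some genes of the lists are not reported here.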

Additional observations from a re-analysis of the deposited data

How the results depend on the processing

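No paired analysis was possible because each fraction was 1 library. Of the summary values recomputed under alternatives, 69 stayed within the limits set for them and 23 moved, and of values of single genes 342 and 77. The ratios of Satb1, Themis and Dntt lay on different sides of 1 in different sets of members. For Satb1 and Themis the intervals up to 2000 UMIs held 1, and Dntt is a gene of the rule. The share of members fell to 0.296% in GFPhi and 1.55% in GFPlo when at least 2 of Dntt, Arpp21 and Ptcra were required. The GFPlo share was 2.29% without cells above 10000 UMIs, 1.23% after thinning to 1000 UMIs and 1.63% without members of 20 or more collagen UMIs per 10000. Without macrophage-gene cells the GFPhi share was 1.93% and the GFPlo to GFPhi ratio 1.03. Between libraries, genes at least 2-fold higher and lower in GFPhi members numbered 672 and 703 with a minimum of 20 CPM and 10 UMIs, 624 and 427 up to 10000 UMIs, 56 and 44 up to 2000 UMIs, and 133 and 159 with both co-receptors up to 10000 UMIs, and 529 were lower by the mean over cells. Members against other GFPlo T cells gave 966 and 1340 with the lower minimum. After thinning, 34.0% of GFPhi members held both co-receptors, and of GFPlo members 6.90% held both, 17.7% CD8 only and 73.4% neither. The cycling share of GFPlo was 47.5% without members above 10000 UMIs. The sets up to 2000 UMIs, the sets with both co-receptors (also without the deepest GFPlo cell) and the limit of 20 collagen UMIs were chosen after seeing the data. For these values the cause was not tested. Ptcra, Rag2 and Cd4 were each at few UMIs per cell, and 5 cells carried most GFPhi member UMIs.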

Other observations

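Some members carried RNA of genes known from other lymphocytes. Ighm, the heavy chain constant region of IgM, had 23 UMIs in 13 GFPhi members and 267 UMIs in 118 GFPlo members, 103 CPM and 167 CPM. It was 3.19-fold higher (2.50 to 4.11) in GFPlo members than in other T cells of that library. Up to 10000 UMIs, GFPlo members with CD8 only had 249 CPM of Ighm and those without co-receptors 108 CPM. Gzma, a granzyme, had 30 UMIs in 8 GFPhi members and 350 in 94 GFPlo members, whereas Gzmb had 0 and 1 UMIs.

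Thymic epithelial genes were looked up in all kept cells of the libraries. Foxn1 had 0 UMIs in GFPhi and 4 in GFPlo, Psmb11 3 and 3, Prss16 37 and 35 and Aire 0 and 1. Ccl25, the ligand of Ccr9, had 414 UMIs in 391 GFPhi cells and 757 UMIs in 703 GFPlo cells, of which 1 and 24 UMIs lay in members.

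Among receptors of inflammatory chemokines, members of GFPhi and GFPlo held 1 and 0 UMIs of Ccr1, 0 and 1 of Ccr2 and 0 and 0 of Ccr8. The reporter feature mGFP had 9 UMIs in 6 GFPhi members and 52 UMIs in 41 GFPlo members, a ratio of 1.24 (0.538 to 2.54) by CPM. CreERT2 was at 0 in members of both libraries, and Cdkn2a, the gene of p16, had 0 and 2 UMIs.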
